A study of Rattus norvegicus with 12 samples.

Results

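Glucose transporters and glycolytic isoenzymes, 10 genes in all, were followed in rat hearts that were failing or served as controls. Of these, 6 were grouped as ubiquitous or fetal forms (Slc2a1, Hk1, Pfkp, Eno1, Eno2 and Ldha) and 4 as muscle forms (Slc2a4, Hk2, Pfkm and Eno3). The group name is loose, since Eno2 encodes the neuronal enolase subunit and Ldha the lactate dehydrogenase subunit of glycolytic tissue. Members were all probe sets annotated to exactly 1 of these symbols, a probe set being the group of short oligonucleotides that reports 1 transcript. This gave all 10 genes, of 14218 with a probe set of their own, and 17 of the 31099 probe sets on the array, 3 of them hexokinase control probe sets and 14 open to testing. All 10 gene identifiers matched the same symbol in RefSeq.

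Heart muscle takes up glucose through 2 main carriers, the insulin-responsive GLUT4 (Slc2a4) and the constitutive GLUT1 (Slc2a1), which prevails in the fetal heart. Hexokinase traps the sugar as glucose 6-phosphate, phosphofructokinase commits it to glycolysis, enolase makes phosphoenolpyruvate, and lactate dehydrogenase interconverts pyruvate and lactate. Each of these steps has isoforms from separate genes, and striated muscle exchanges several fetal or ubiquitous forms for muscle forms as it matures. A return towards fetal glucose handling is a textbook feature of the hypertrophied heart.

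The series concerns the spontaneously hypertensive rat, an inbred strain with high blood pressure, at the passage from compensated hypertrophy to systolic failure. Total RNA from heart tissue of 6 failing and 6 control animals, described as biological replicates, was hybridised to 1 array per heart. The sources used here give neither strain, age, sex nor treatment for the individual groups, so what the controls share with the failing animals is not known, and the captopril-treated groups named in the protocol are not analysed here. One label speaks of a cell line, although heart is given as the tissue. All 7 measured cardiomyocyte markers of 8 listed lay in the brighter part of the table. Their summed intensity was 203492 to 316020 in failing hearts (median 266561) and 196002 to 320012 in control hearts (median 307740). Array medians ran from 120.8 to 144.2 on the linear intensity scale, and precision is limited by having 6 arrays in each group. In the limma fit of brighter probe sets described below, 429 were called higher and 230 lower over all 12 hearts. Without control replicate 4 these numbers were 1032 and 1046 and without failing replicate 5 they were 805 and 661, while without any 1 of the other hearts they ran from 20 to 337 and from 4 to 106. Calls that change without these 2 hearts, whose removal raised the number of calls, are therefore given beside the members and the other genes named. For genes called only in this way, the highest adjusted p with any 1 heart left out is given too. In these bulk samples, fewer cells of a type and less RNA per cell cannot be told apart.

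For 9 of the 10 genes RefSeq promoter sequences were at hand, 11 in all, since Hk1 and Eno1 have 2 start sites each. The 250 bases upstream of the annotated start are shown for the pair of ubiquitous or fetal members and the pair of muscle members with the largest differences reported below among genes with a sequence, so that they can be read beside the values. Build GRCr8 was used. Capitals mark the core of the hypoxia response element, searched as ACGTG and GCGTG on both strands, so that CACGT and CACGC are the reverse complements.
Slc2a1, chr5:138002272-138002521, plus strand: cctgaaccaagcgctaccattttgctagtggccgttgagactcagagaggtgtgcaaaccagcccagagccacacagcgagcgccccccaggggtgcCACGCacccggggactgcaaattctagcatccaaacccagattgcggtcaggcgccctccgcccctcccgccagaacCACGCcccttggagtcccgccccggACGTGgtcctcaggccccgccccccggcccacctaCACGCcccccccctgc
Eno2, chr4:159267221-159267470, minus strand: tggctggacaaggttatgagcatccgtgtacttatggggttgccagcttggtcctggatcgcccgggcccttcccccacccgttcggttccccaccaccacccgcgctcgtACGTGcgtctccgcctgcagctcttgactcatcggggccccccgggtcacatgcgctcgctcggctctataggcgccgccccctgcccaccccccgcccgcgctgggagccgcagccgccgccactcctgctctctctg
Pfkm, chr7:131113849-131114098, plus strand: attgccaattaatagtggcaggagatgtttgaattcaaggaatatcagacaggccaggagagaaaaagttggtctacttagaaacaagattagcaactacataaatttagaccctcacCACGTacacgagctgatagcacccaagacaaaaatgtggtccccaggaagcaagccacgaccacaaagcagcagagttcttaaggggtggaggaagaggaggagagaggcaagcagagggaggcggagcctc
Eno3, chr10:55868936-55869185, plus strand: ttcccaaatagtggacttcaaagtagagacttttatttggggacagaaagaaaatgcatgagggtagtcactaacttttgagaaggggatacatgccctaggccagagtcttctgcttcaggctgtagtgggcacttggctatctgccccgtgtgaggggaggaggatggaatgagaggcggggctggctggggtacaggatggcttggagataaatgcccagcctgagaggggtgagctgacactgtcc

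The hypoxia core was present 4 times in the Slc2a1 window, once each in those of Eno2 and Pfkm, and 0 times in that of Eno3. Over the members it occurred in 8 of 11 windows, and over all 33469 RefSeq windows of the same length in 36.7%. It was also held by the windows of Ldha and Pfkp, by both of Eno1 and by 1 of the 2 of Hk1, while the other Hk1 window and that of Hk2 had 0 copies. The GC box GGGCGG, searched on both strands, was found in 6 of the 11 member windows against 30.5% of all windows, always in a ubiquitous or fetal member. The E-box CACGTG, which overlaps the hypoxia core ACGTG, occurred in the Ldha window alone, against 5.59% of all windows. The MEF2 site, bound by a muscle transcription factor family, was found in 0 of 11 windows and in 2.96% of all. GC content was 68.4% for Slc2a1 and 69.6% for Eno2, and 47.6% for Pfkm and 52.4% for Eno3, against a median of 51.2% over all windows. GC-rich windows hold GC-rich motifs more readily.

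No member passed the test, while the group means of the members differed in direction by isoform. In the brightest probe set of each gene, the mean was higher in failing than in control hearts for all 6 ubiquitous or fetal genes and lower for all 4 muscle genes. On the log2 scale the differences ran from 0.07 to 0.76 in the former and from -0.17 to -0.68 in the latter. By limma, a linear model that pools the variance estimate across probe sets, with Benjamini-Hochberg adjustment, 0 of 14 member probe sets passed an adjusted p of 0.05 over all 31042 probe sets tested, where 0 probe sets (0%) passed at all. An unadjusted p under 0.05 was reached by 4495 probe sets, and with limma's trended, robust prior variance 548 passed, 0 of them members. Dim probe sets vary widely on this scale, so the fit was also made among the 15521 brighter probe sets, those at or above the median level. There again 0 of 12 members passed, while 2.76% of the brighter probe sets were called higher and 1.48% lower. At an unadjusted p under 0.05 stood Slc2a1, Hk1 and Eno2 as higher and Slc2a4 and Pfkm as lower, 5 of the 12, against 25.1% of the brighter probe sets in either direction. No member's groups were free of overlap, which was the case for 1.78% of brighter probe sets higher and 0.844% lower. The median log2 difference was 0.39 over the 6 brighter probe sets of ubiquitous or fetal genes and -0.45 over the 6 of muscle genes, and lay at -0.00022 over all brighter probe sets, of which 49.9% were above 0 and 50.1% below. Without control replicate 4 the test called 2 of the 12 higher (Slc2a1 and Eno2) and 2 lower (Slc2a4 and Pfkm), where 6.65% of the brighter probe sets were higher and 6.74% lower. Without failing replicate 5 it called Slc2a1 and Eno2 higher and Pfkm lower, where 5.19% were higher and 4.26% lower. None of these calls was made on leaving out any other heart. The differences themselves did not all shrink, Slc2a1 being at 0.85 without failing replicate 3 and Slc2a4 at -0.80 without failing replicate 1. With any 1 heart left out, the highest limma adjusted p was 0.112 for Slc2a1, 0.121 for Eno2, 0.216 for Slc2a4 and 0.152 for Pfkm.

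**Figure D1:**
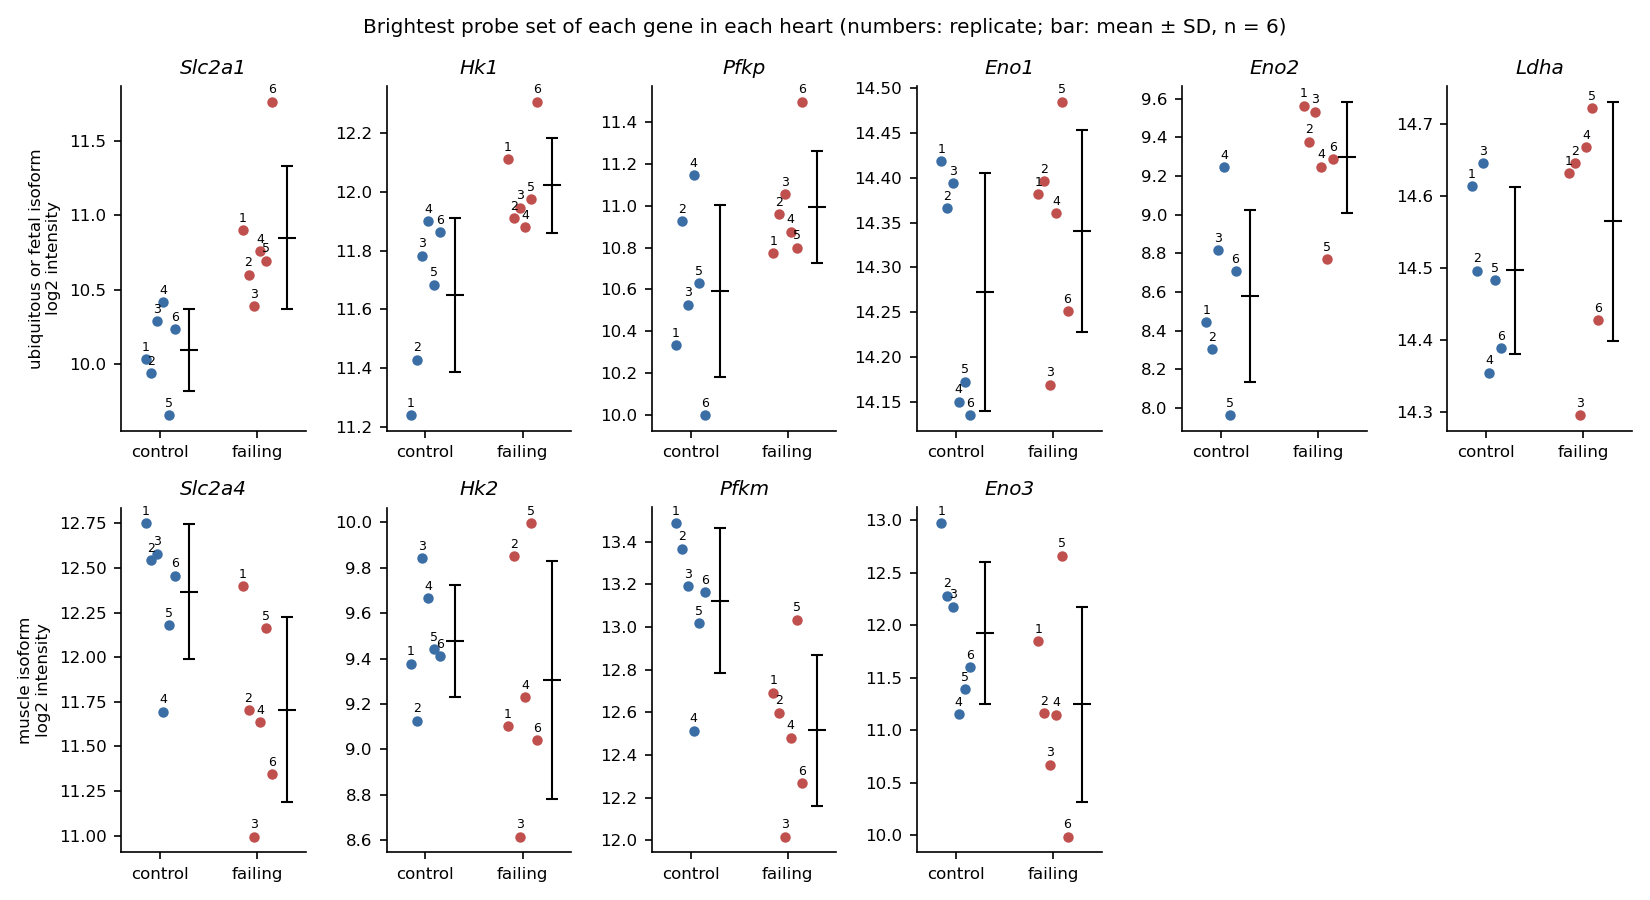
Log2 intensity of the brightest probe set of each of the 10 genes in every heart, control in blue and failing in red, with the replicate number at each point and the mean ± SD (n = 6) as a bar. The upper row holds the ubiquitous or fetal isoforms and the lower row the muscle isoforms; each panel has its own axis, and control replicate 4 lies on the failing side in Slc2a4, Pfkm and Eno2.

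Slc2a1, encoding GLUT1, showed the largest difference among the ubiquitous members. Its log2 intensity was 10.39 at the lowest, 10.73 at the median and 11.76 at the highest in failing hearts, and 9.65, 10.13 and 10.41 in control hearts. Of the 6 failing hearts 5 lay above every control heart, failing replicate 3 alone falling just below control replicate 4. The difference was 0.76 ± 0.21 (SE, n = 6 per group), or 1.69-fold with a 95% interval from 1.24 to 2.30, and did not pass by limma (adjusted p = 0.0544 among the brighter probe sets, 0.183 over all). Without failing replicate 6, the highest heart, the difference was 0.57 (adjusted p = 0.0759). The call was reached without control replicate 4 (adjusted p = 0.0289) or failing replicate 5 (adjusted p = 0.0449).

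Slc2a4, encoding GLUT4, went the other way in both of its probe sets. In the brighter probe set the lowest, median and highest values were 10.99, 11.67 and 12.40 in failing and 11.69, 12.50 and 12.75 in control hearts (log2). All 6 failing hearts lay below the control median, and 3 lay below every control heart. The difference was -0.66 ± 0.24 (1.58-fold lower, limma adjusted p = 0.109 among the brighter probe sets), and -0.80 ± 0.22 without control replicate 4, the lowest control heart (adjusted p = 0.0359). The other probe set, of a kind that can detect several transcripts of the gene, gave -0.30 ± 0.15 (adjusted p = 0.22). Failing replicate 3 was far below the rest in that probe set, at 9.79 against 10.41 for the next heart.

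Of the hexokinases, Hk1 is the ubiquitous form and Hk2 the insulin-regulated form of muscle. Hk1 in its bright probe set stood at 11.88, 11.96 and 12.31 (lowest, median, highest log2 intensity) in failing and at 11.24, 11.73 and 11.90 in control hearts. All but failing replicate 4 exceeded every control heart, and the difference was 0.37 ± 0.13, or 1.29-fold (limma adjusted p = 0.108 among the brighter probe sets). Hk2 was spread more widely in failing hearts, from 8.62 to 10.00 with a median of 9.17, than in control hearts, from 9.13 to 9.84 with a median of 9.43. Its difference of -0.17 had a 95% interval from -0.63 to 0.29 (adjusted p = 0.652), so that a fall or a rise of moderate size could not be told from none.

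The array also carries control probe sets for hexokinase along the 5′ end, middle and 3′ end of the Hk1 transcript, which read both its level and its integrity. They differed by 0.63 ± 0.40, 0.35 ± 0.27 and 0.53 ± 0.24 (log2, failing minus control), and none passed when control probe sets were entered into the limma fit (adjusted p = 0.501, 0.588 and 0.346). Control replicates 1 and 2 had the lowest values in all 3, with 7.49 and 6.71 at the 5′ end, where the failing hearts began at 8.39. The 3′ minus 5′ difference of hexokinase was 1.98 in control replicate 2 and ran from 0.86 to 1.49 in the other 11 hearts. The same quantity averaged over the Gapdh and beta-actin control probe sets was 0.78 in control replicate 2, the highest of the 12 hearts, and 0.36 in control replicate 4, the lowest. With it as a covariate in the fit the Eno2 difference was 0.70 (limma adjusted p = 0.0439), the 1 member called, where 3.57% of the brighter probe sets were called higher. A further Hk1 probe set lay near the bottom of the scale, with failing replicate 1 at 1.20 and control replicate 3 at 1.43, and its difference of -0.69 ± 0.99 carries no direction.

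Phosphofructokinase is the committed step of glycolysis, with Pfkm as the muscle subunit and Pfkp as the platelet-type subunit. Pfkm stood at 12.02, 12.54 and 13.03 (lowest, median, highest log2 intensity of its brightest probe set) in failing and at 12.51, 13.18 and 13.49 in control hearts. All 6 failing hearts were below the control median, and the overlap came from failing replicate 5, at 13.03, and control replicate 4, at 12.51. The difference was -0.61 ± 0.19, or 1.53-fold lower (limma adjusted p = 0.072 among the brighter probe sets). The call was reached without control replicate 4 (-0.73, adjusted p = 0.0189) or failing replicate 5 (-0.71, adjusted p = 0.0307). A second bright Pfkm probe set gave -0.28 ± 0.16 (adjusted p = 0.305) and a dim one -0.27 ± 0.43. Pfkp ranged from 10.77 to 11.50 with a median of 10.92 in failing hearts and from 10.00 to 11.15 with a median of 10.58 in control hearts. Every failing heart was above the control median, but only failing replicate 6 exceeded control replicate 4, and the difference of 0.40 ± 0.19 did not pass (adjusted p = 0.201).

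The 3 enolase genes encode the ubiquitous alpha (Eno1), the neuronal gamma (Eno2) and the muscle beta (Eno3) subunit. Eno2 stood at 8.77, 9.33 and 9.56 (lowest, median, highest log2 intensity) in failing and at 7.96, 8.58 and 9.25 in control hearts. In 5 of 6 failing hearts the value exceeded every control heart, failing replicate 5 being the exception, and the difference was 0.72 ± 0.20, or 1.64-fold (95% interval 1.22 to 2.21; limma adjusted p = 0.0569 among the brighter probe sets). Without control replicate 4, the highest control heart, it was 0.85 (adjusted p = 0.0154), and without failing replicate 5 it was 0.82 (adjusted p = 0.0251).

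Eno3 varied most of all members in its brightest probe set, with an SD of 0.93 among failing and 0.67 among control hearts. Its values were 9.99, 11.16 and 12.66 (lowest, median, highest) in failing and 11.15, 11.89 and 12.97 in control hearts. The mean difference of -0.68 ± 0.41 was of the same size as those of Slc2a4 and Pfkm, yet its 95% interval ran from -1.55 to 0.19 (adjusted p = 0.311). Failing replicate 5, at 12.66, was the second highest heart of all, and without it the difference was -0.96 (adjusted p = 0.101). Eno1, by contrast, varied little, from 14.17 to 14.48 in failing and from 14.13 to 14.42 in control hearts. Its difference of 0.07 had a 95% interval from -0.14 to 0.28, which leaves out the sizes measured for Slc2a1 and Eno2.

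Ldha, the lactate dehydrogenase subunit of glycolytic tissue, lay as close together in the groups as Eno1. Its log2 intensity ran from 14.30 to 14.72 with a median of 14.64 in failing hearts and from 14.35 to 14.65 with a median of 14.49 in control hearts. The difference was 0.07 with a 95% interval from -0.16 to 0.29 (limma adjusted p = 0.721). Ldhb, the heart subunit, is no member and was at -0.18 ± 0.15 (adjusted p = 0.47).

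**Figure D2:**
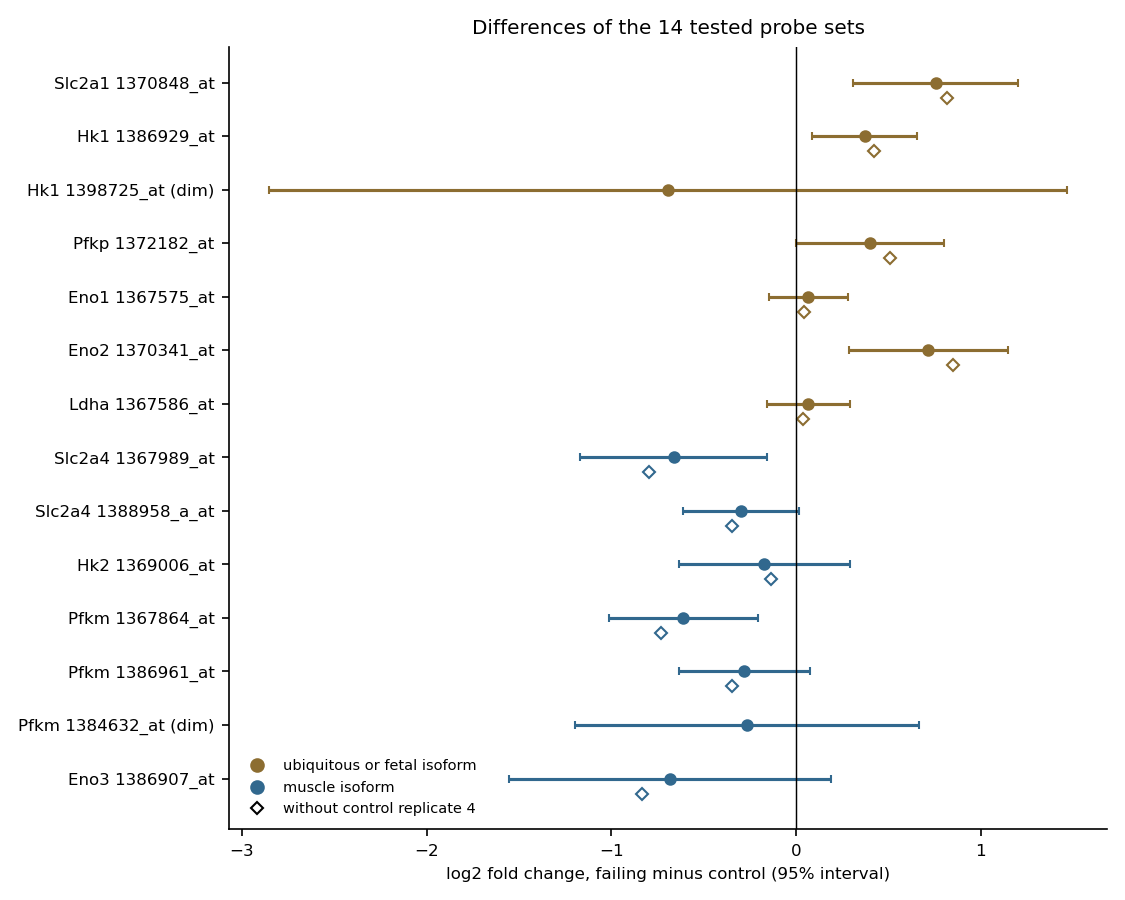
Log2 fold change, failing minus control, of the 14 tested probe sets with 95% intervals from limma (filled points), and the same without control replicate 4 for the 12 brighter ones (open diamonds). Bright probe sets of ubiquitous or fetal isoforms lie at or above 0.07 and those of muscle isoforms at or below -0.17, while both probe sets marked as dim have wide intervals.

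To ask whether 2 isoforms of a step had shifted unequally, the log2 difference between them was taken within each heart, where any scaling of the whole array cancels. The level of such a difference depends on the probes and has no meaning of its own, and only its shift between groups is read. The shift was tested by an exact two-sided permutation test over all 924 arrangements of the hearts, with p-values adjusted over 6 pairs (smallest possible p = 0.00216). Because the pairs share hearts and 2 of them share Eno3, they are not independent. Their members were chosen with earlier results of these data known, and 25.1% of all brighter probe sets were under an unadjusted limma p of 0.05. No share of shifted pairs over other probe sets is given, so the pair calls cannot be set against one.

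The glucose carriers, GLUT1 and GLUT4, were the pair that passed. Slc2a1 minus Slc2a4 was -1.50 at the lowest, -0.99 at the median and 0.42 at the highest in failing hearts, and -2.72, -2.41 and -1.28 in control hearts. Failing replicates 2, 3, 4 and 6 lay above every control heart, and failing replicates 1 and 5 lay below control replicate 4 alone. The shift towards GLUT1 was 1.42, from -2.27 ± 0.52 (SD, n = 6) in control to -0.86 ± 0.71 in failing hearts, a 2.67-fold change of the ratio (exact permutation p = 0.00649, adjusted p = 0.039). The other 5 pairs did not pass. The call held without control replicate 4 or failing replicate 1 or 5, and was lost on leaving out each of failing replicates 2, 3, 4 and 6 and control replicates 1, 2, 3, 5 and 6, at adjusted p between 0.0519 and 0.0779 with shifts from 1.16 to 1.47.

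The other pairs shifted in the same direction without passing. Pfkp minus Pfkm shifted by 1.01 (exact permutation p = 0.026, adjusted p = 0.0552), with every failing heart above the control median and control replicate 4 again among the failing hearts. Eno2 minus Eno3 shifted by 1.40 (exact p = 0.0368, adjusted p = 0.0552), and Eno1 minus Eno3 by 0.75 (exact p = 0.102). In both enolase pairs failing replicate 5 stood apart, at -3.89 against a failing median of -1.84 and at 1.82 against 3.22. Hk1 minus Hk2 shifted by 0.54 (exact p = 0.0693, adjusted p = 0.0831), with failing replicates 2 and 5 inside the control range. Ldha minus Ldhb shifted by 0.25 (exact p = 0.0346, adjusted p = 0.0552), with failing hearts between -0.81 and -0.60 and control hearts between -1.17 and -0.56. Without failing replicate 5 all 5 of these pairs passed (adjusted p from 0.0234 to 0.0368), and without control replicate 4 the pairs Pfkp minus Pfkm, Eno2 minus Eno3 and Ldha minus Ldhb did (adjusted p = 0.00866, 0.0325 and 0.00649). With any 1 heart left out, the highest adjusted p of these 5 pairs ran from 0.110 to 0.201.

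**Figure D3:**
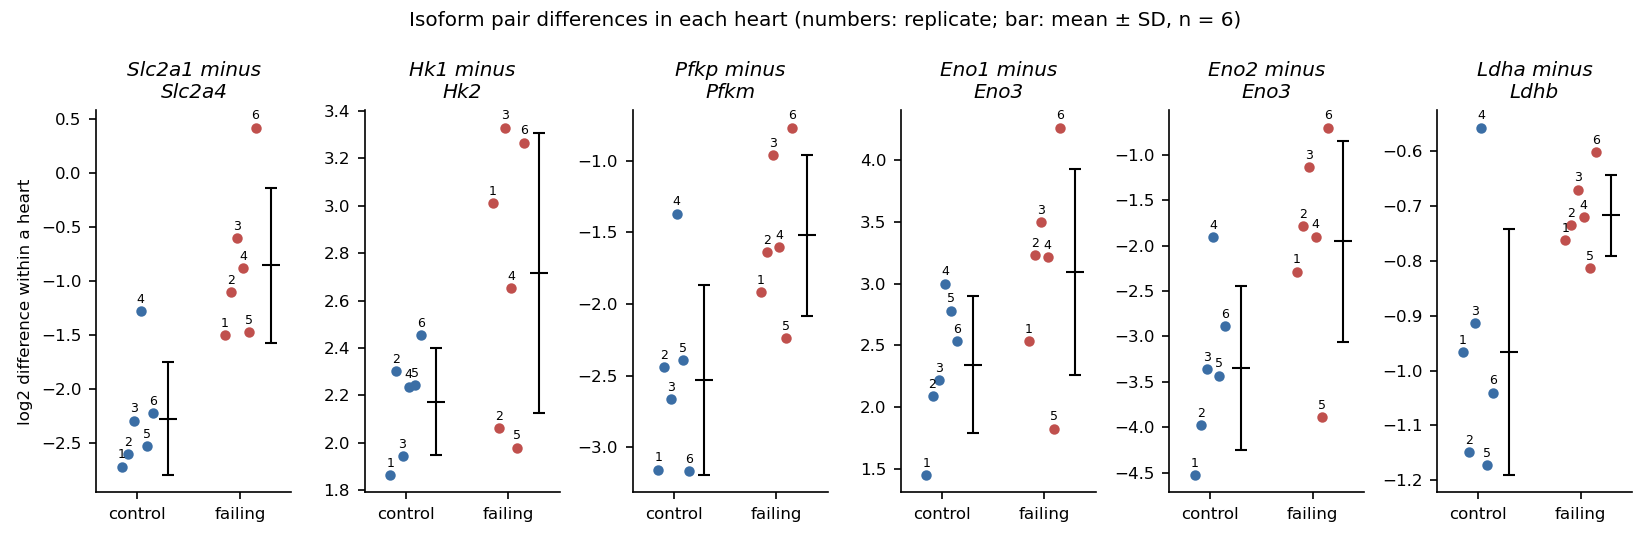
Log2 difference between the isoforms of each of 6 pairs in every heart, control in blue and failing in red, with the replicate number at each point and the mean ± SD (n = 6) as a bar. Each panel has its own axis; Slc2a1 minus Slc2a4 shifted by 1.42 between the groups, and control replicate 4 is the highest control heart in 5 of the 6 panels.

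Control replicate 4 and failing replicate 5 went against their group in some of the members. The 6 ubiquitous genes minus the 4 muscle genes, each centred on its mean over the 12 hearts, gave -0.99, -0.61, -0.56, -0.43 and -0.46 in control replicates 1, 2, 3, 5 and 6, and 0.26 in control replicate 4. Among failing hearts replicate 5 was at -0.41, while the other 5 ran from 0.20 to 1.24, with replicates 6 and 3 the highest. Control replicate 4 was on the failing side of the mean for Slc2a4, Pfkm, Eno3, Eno2, Pfkp and, by 0.065, Hk1, but not for Slc2a1, Eno1, Ldha or Hk2. Failing replicate 5 was on the control side for all 4 muscle genes and Eno2, while its Slc2a1 and Hk1 exceeded every control heart. These values describe the hearts and are not tested, as the genes were sorted by isoform. Among the muscle genes failing replicates 3 and 6 were the lowest hearts for Slc2a4, Pfkm and Eno3, and for Hk2 too.

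**Figure D4:**
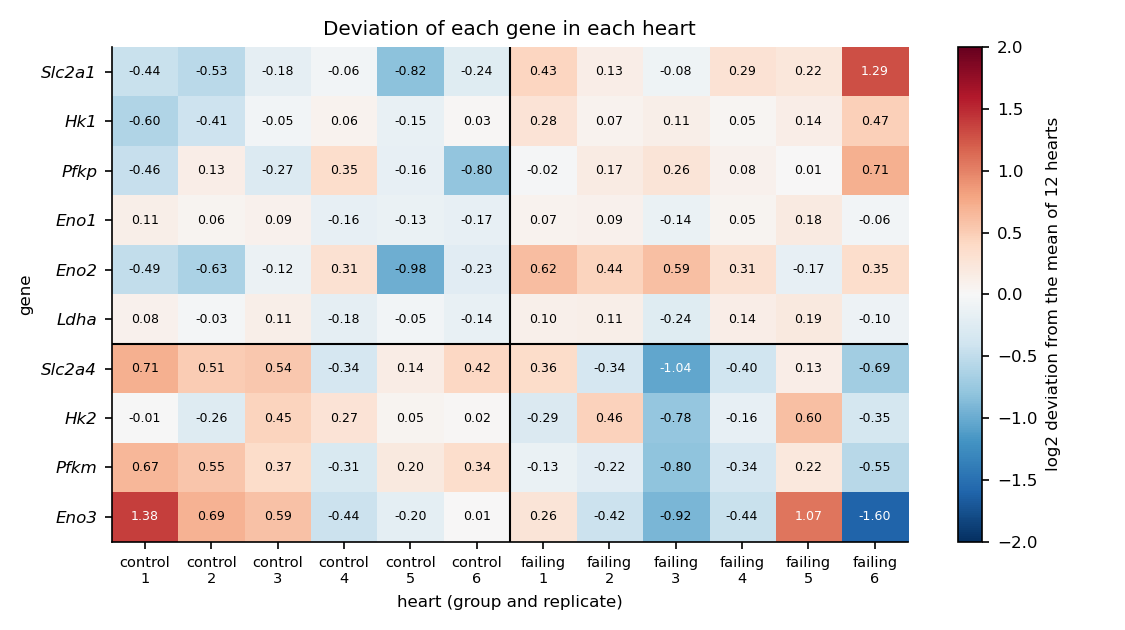
Deviation of the brightest probe set of each gene (rows) from its mean over the 12 hearts, in log2 units, for each heart (columns), with the ubiquitous or fetal isoforms above the line. Control hearts other than replicate 4 are mostly low above the line and high below it, and failing replicates 3 and 6 are low for all 4 genes below it.

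The members did not vary alike. Over the 12 hearts, which share 1 array type and 1 scaling, Pfkm ran most closely with genes of the mitochondrion, Macrod1 (Pearson r = 0.995) and Sdhd (r = 0.992), a subunit of succinate dehydrogenase. These remained at 0.991 and 0.990 after each group was centred on its own mean. Eno3 ran most closely with Ppargc1a (r = 0.951, 0.963 centred), the coactivator PGC-1 alpha, and Slc37a1 (r = 0.947). The pattern of Slc2a4 was most like those of Ap4s1 (r = 0.976) and Mmadhc (r = 0.975), a gene of intracellular cobalamin handling. Hk2 had no such close partner, with 0.856 for Kcnj11, a subunit of the ATP-sensitive potassium channel. Among the ubiquitous genes, Slc2a1 was nearest to Arrdc3 (r = 0.935) and Terf2ip (r = 0.930), Hk1 to Ubfd1 (r = 0.958) and Ddb1 (r = 0.943), and Pfkp to Bhlhe40 (r = 0.925) and Rell2 (r = 0.922). Eno2 was nearest to Txn1, the thioredoxin gene (r = 0.956), and Rnh1 (r = 0.941). For Eno1 and Ldha the nearest genes reached 0.886 (Spink8) and 0.863 (Cog5). These partners were the highest of 12455 probe sets searched, so high values are bound to occur, and the correlations are given as a description of these hearts.

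Between members, the highest correlations over the 12 hearts were those of Slc2a4 with Pfkm (0.95, 0.92 after centring the groups) and of Eno1 with Ldha (0.91, 0.90 centred), followed by Eno3 with Pfkm (0.86) and with Slc2a4 (0.85). Slc2a1 and Hk1 also ran together, at 0.81 and 0.62 after centring. The lowest correlations joined a ubiquitous with a muscle gene, Eno2 with Pfkm at -0.80 (Spearman rho -0.72) and Hk1 with Pfkm at -0.74. After centring the groups these were -0.59 and -0.51. The ubiquitous Eno1 and Ldha, however, ran with the muscle genes, after centring at 0.84 for Eno1 with Eno3 and with Pfkm, 0.81 for Ldha with Pfkm and 0.80 for Ldha with Slc2a4. Probe sets of 1 gene ran together where both were bright, at 0.78 for the 2 of Slc2a4, 0.72 for the 2 bright ones of Pfkm and 0.88 for the bright Hk1 probe set and the 3′ hexokinase control.

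The rest of the glucose pathway was taken from 8 lists, with 148 brighter probe sets, of which 2 were called higher and 1 lower by limma (adjusted p of 0.05), against the 2.76% and 1.48% of all brighter probe sets given above. The other enzymes of glycolysis had 0 calls in 16 brighter probe sets, with a median log2 difference of -0.087. The smallest p belonged to Pgam2, the muscle phosphoglycerate mutase, at -0.71 ± 0.23 (adjusted p = 0.0877). It was called without control replicate 4 (-0.89, adjusted p = 0.0149) or failing replicate 5 (-0.83, adjusted p = 0.0392). With any 1 heart left out, its highest adjusted p was 0.178. Its ubiquitous counterpart Pgam1, singled out after its values were seen, was at 0.21 (adjusted p = 0.156). Gapdh was read by 3 control probe sets, which differed by between -0.092 and -0.051, each less than its SE. Among lactate dehydrogenases and monocarboxylate transporters 0 of 8 passed. Slc16a3, encoding the lactate exporter MCT4, had the smallest p at 1.09 ± 0.31 (adjusted p = 0.0585 among the brighter probe sets, 0.189 over all). Its control hearts, at 6.49 ± 0.74 (SD, n = 6), lay on average below the limit of 6.94 for brighter probe sets. It passed that limit only through the failing hearts, at 7.58 ± 0.44, so its p among the brighter probe sets is no support for a rise. Without control replicate 4 it was called at 1.29 (adjusted p = 0.0164), under the same limit, and its highest adjusted p with any 1 heart left out was 0.119. Of the other hexose transporters just 3 probe sets were bright, all from Slc2a13 and Slc2a3, the latter at 0.37 ± 0.24 (adjusted p = 0.364). A dim Slc2a3 probe set was at 0.015 ± 0.48.

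Glycogen genes had 0 calls in 19 brighter probe sets, 14 of them below 0, with a median of -0.15. Ppp1r3a, the muscle glycogen-targeting subunit of protein phosphatase 1, came nearest at -0.68 ± 0.19 (adjusted p = 0.0542). It was called without control replicate 4 (-0.81, adjusted p = 0.0144) or failing replicate 5 (-0.77, adjusted p = 0.0267), while its highest adjusted p with any 1 heart left out was 0.119. The list of fructose 2,6-bisphosphate and gluconeogenesis genes had 0 calls in 5, G6pc3 having the smallest p (-0.27 ± 0.11, adjusted p = 0.16). In the pentose phosphate, polyol and hexosamine branches 1 of 20 rose and 1 fell. Gfpt2, an isoform of the enzyme that opens hexosamine synthesis, rose from 9.57 ± 0.41 (SD, n = 6) in control to 11.16 ± 0.64 in failing hearts, by 1.60 ± 0.28 or 3.02-fold (limma adjusted p = 0.0182). Leaving out control replicate 1, control replicate 6 or failing replicate 3 removed this call, with adjusted p between 0.0504 and 0.0564. Rpia, ribose 5-phosphate isomerase, fell by 0.58 ± 0.12 (adjusted p = 0.0292), with no overlap between the groups, which was so for 0.844% of brighter probe sets in this direction. A second Rpia probe set was at -0.25 ± 0.21 (adjusted p = 0.478), and the call of the first was lost when failing replicates 3, 4 and 6 and control replicates 1, 2, 3, 5 and 6 were left out in turn, at adjusted p between 0.0511 and 0.0739.

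Of 33 brighter probe sets of GLUT4 traffic and insulin signalling, 1 rose and 0 fell, with a median of -0.065. Grb10, an adaptor that restrains the insulin receptor, rose by 0.64 ± 0.14 (limma adjusted p = 0.0323), and both of its dim probe sets were also above 0, at 0.59 ± 0.31 and 0.61 ± 0.24. Its call held without failing replicate 1 or 5 or control replicate 4 and was lost when any of the other 9 was left out, the adjusted p then lying between 0.0530 and 0.0812. The 44 probe sets of transcriptional and energy regulators had 0 calls and a median of 0.080. The smallest p was that of Prkag1, a regulatory subunit of AMP-activated protein kinase, at -0.43 ± 0.12 (adjusted p = 0.051). It was called without control replicate 4 (-0.49, adjusted p = 0.0177) or failing replicate 5 (-0.47, adjusted p = 0.0334), while its highest adjusted p with any 1 heart left out was 0.115. Hif1a, part of the oxygen-regulated factor that binds the hypoxia core, was singled out after its values were seen. It was at 0.26 ± 0.10 (adjusted p = 0.118), with every failing heart above every control heart, which was so for 1.78% of brighter probe sets in this direction. Egln1 and Egln3, singled out in the same way, went lower, at -0.35 ± 0.13 and -0.28 ± 0.12 (adjusted p = 0.110 and 0.150). In both, every failing heart lay below every control heart, as in 0.844% of brighter probe sets. A dim Egln1 probe set was at 0.22 ± 0.39. Arnt, Epas1 and Vhl were also looked up after the values were seen. Arnt was at 0.74 ± 0.22 (limma adjusted p = 0.206 over all probe sets), its control mean of 6.90 lying below the limit for brighter probe sets. Both Epas1 probe sets were near 0, at 0.12 ± 0.15 and 0.16 ± 0.15. Vhl ran from 9.79 to 10.54 in failing and from 9.49 to 10.04 in control hearts (log2 intensity). A part of hypoxia in these differences was not tested. The Ppargc1a probe set that ran with Eno3 was at -0.59 ± 0.23 (limma adjusted p = 0.129). The other brighter Ppargc1a probe sets were at -0.39 ± 0.18 (adjusted p = 0.183) and -0.075 ± 0.32 (adjusted p = 0.914). Without control replicate 4, where 6.65% of brighter probe sets were called higher and 6.74% lower, the calls in these lists numbered 10 higher and 19 lower of 149. They comprised 6 lower of 19 for glycogen, 2 higher and 2 lower of 8 for lactate dehydrogenases and monocarboxylate transporters, and 4 higher and 4 lower of 44 for the regulators. The hexosamine and related branches had 2 higher and 3 lower of 20, GLUT4 traffic and insulin signalling 2 higher and 3 lower of 33, and the other glycolytic enzymes 0 higher and 1 lower of 16. Without failing replicate 5 the lists had 3 higher and 8 lower calls of 146. None of the 3 calls made with all 12 hearts held when the fit covered all probe sets (adjusted p = 0.106 for Gfpt2, 0.133 for Rpia and 0.140 for Grb10).

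**Figure D5:**
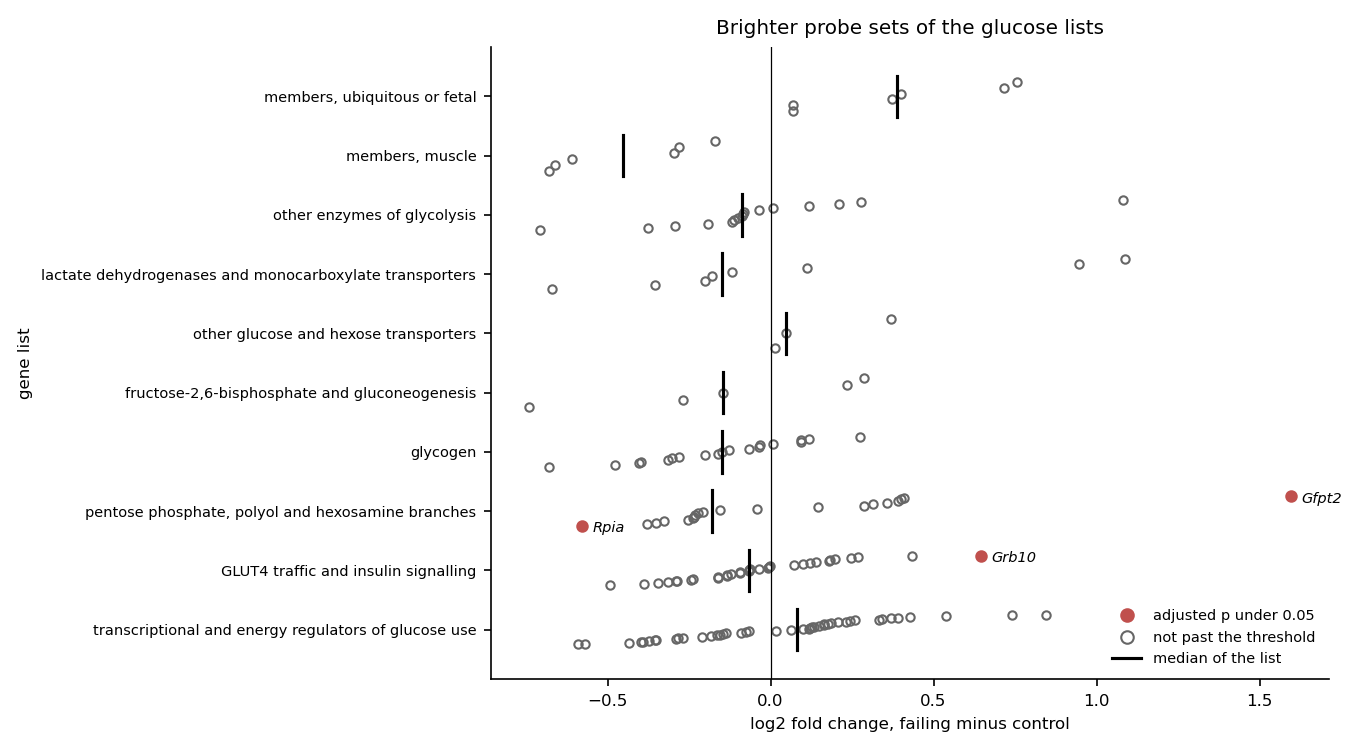
Log2 fold change, failing minus control, of each brighter probe set (points) in the 2 member groups and the 8 other lists (rows), with the median of each list as a vertical bar and calls at an adjusted p under 0.05 filled. Gfpt2 at 1.60, Grb10 at 0.64 and Rpia at -0.58 are the 3 calls, and the member medians lie at 0.39 and -0.45.

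Markers of other cells differed between the same hearts. The summed intensity of 7 fibroblast markers was 62521 to 105939 in failing and 48056 to 64564 in control hearts, and that of 7 macrophage markers 6036 to 19605 against 4958 to 8324, with 3 of 7 genes higher in each list. The 5 measured endothelial markers summed to 9243 to 13139 in failing and 8391 to 10702 in control hearts and moved both ways, Vwf, von Willebrand factor, rising by 1.10 (limma adjusted p = 0.0276) and Emcn, endomucin, at -0.78 (adjusted p = 0.0419). For 4 smooth muscle markers the sums were 2522 to 5885 and 1598 to 2848. Of 4 measured neural and Schwann cell markers, relevant to Eno2, the sum was 626 to 1070 against 409 to 529, carried by Uchl1, with S100b, Sox10 and Nefl among the dimmer probe sets. Erythroid markers, relevant to Slc2a1, overlapped widely in their sums (15309 to 44438 and 17707 to 43498), which were mostly Hbb. Control replicate 4 stood apart in Alas2, at 12.85 (log2) against 8.81 to 10.19 in the other control hearts and at most 11.31 in failing hearts. In the dim Slc4a1 probe sets it was at 10.60 and 9.33, with the other control hearts at most at 6.94 and 7.17. For adipocyte markers, relevant to Slc2a4, the sums were 10893 to 12968 in failing and 13036 to 16975 in control hearts, nearly all of it Fabp4, since Adipoq, Plin1, Lep and Cidec were among the dimmer probe sets. Skeletal muscle markers summed to 3962 to 20142 and 7830 to 29466, carried by Myh1-annotated probe sets, with Myh2, Myh4, Tnnt3, Myog and Actn3 among the dimmer ones. The 5 brighter Myh1-annotated probe sets did not move alike, 4 being lower in failing hearts and 1 higher, at 0.85 ± 0.29 (limma adjusted p = 0.0969). The part of these cells in the member differences was not tested.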

How the data were processed

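Heart RNA of 12 rats, 6 failing and 6 control by their titles, was measured on 1-colour arrays. The authors deposited linear intensity values for 31099 probe sets, from 0.1 to 79913.6. RMA is named in the submitters' processing notes without a version, but RMA values are usually log2, and each array here has the same trimmed mean (500.19 to 500.23 with 2% off each end), so the summary method is unknown. Such scaling hides any change shared by most genes. The genome build is not given in the sources used here.

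The log2 of each intensity was taken as deposited. After 57 control probe sets were set aside, 31042 were tested with limma 3.58.1 in R 4.3.3 (lmFit, eBayes, group as the only term, two-sided, Benjamini-Hochberg adjustment, threshold 0.05), over all and among those with a mean at or above the median of 6.94 (intensity 123). SEs and intervals are limma's. The array annotation paired 20826 probe sets with 1 symbol, 436 with several and 9780 with none. Where a gene had several probe sets, the one with the highest mean stood for it in pairs and correlations.

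The members and lists were chosen with earlier results of these data known. Other genes named by rule are, per list, up to 2 calls in each direction or the smallest p, plus Ldhb, Gapdh and the 2 best correlated genes per member (provisional symbols left out). Outside this rule, Pgam1, Hif1a, Egln1, Egln3, Arnt, Epas1 and Vhl were named after their values were seen, and single cell type markers were named from the marker lists. Figures were drawn with matplotlib 3.10.9. The scripts were tested on simulated data. Alternatives covered the variance model, normalization, centring, an offset of 32, array weights, the replicate number as a block, an RNA quality covariate, rank-sum tests, filters, thresholds and each heart left out; entering the control probe sets was added after the data were seen.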

Additional observations from a re-analysis of the deposited data

Results flagged for a closer look

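In 5 of 46 groups of 6 hearts tested with Dixon's criterion 1 heart stood far from the others, where chance alone gives about 1 in 20 groups. Slc2a1 was at 11.76 (log2 intensity) in failing replicate 6, the next failing heart being at 10.90. In the second Slc2a4 probe set failing replicate 3 was at 9.79, with the next heart at 10.41. Slc2a1 minus Slc2a4 was -1.28 in control replicate 4 against -2.22 in the next control heart. The dim Hk1 probe set fell to 1.43 in control replicate 3, with the next control heart at 5.43, and to 1.20 in failing replicate 1, with the next failing heart at 4.55, both near the lowest intensities of the table.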

How the results depend on the processing

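Among the brighter probe sets the member calls went from 0 of 12, with 4.25% of the table called, to 3 with a trended, robust prior variance (6.53%), 1 with an offset of 32 (5.03%), 4 with array weights (10.2%), 1 with the RNA quality covariate (5.56%), 3 with 1 probe set a gene (10.1%), 2 with a filter at the upper quartile (11.8%) and 3 at a threshold of 0.1 (11.8%). With a heart left out they ran from 0 to 4. Over all probe sets they were 0 in every setting run. The 3 calls in the other lists became 5 (trended variance), 6 (offset), 14 (array weights) and 9 (covariate), and ran from 0 to 29 with a heart left out, 29 being without control replicate 4. Among all brighter probe sets array weights called 853 higher and 731 lower, against 429 and 230. Centring on the median gave 395 and 136. The rank-sum test and the filter at the lower quartile each called 0. The causes were not tested.

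With a heart left out the pair shifts ran from 1.16 to 1.62 for Slc2a1 minus Slc2a4, 0.42 to 0.69 for Hk1 minus Hk2, 0.86 to 1.24 for Pfkp minus Pfkm, 0.51 to 1.00 for Eno1 minus Eno3, 1.15 to 1.79 for Eno2 minus Eno3 and 0.21 to 0.33 for Ldha minus Ldhb. Hk1 minus Hk2 reversed to -0.52 with the second brightest probe set, the dim one of Hk1. After quantile normalization Ldha minus Ldhb was 0.24 and passed (adjusted p = 0.0195).

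Same-numbered deviations correlated between -0.060 and 0.232, where any failing and control hearts ran from -0.317 to 0.345. Of 6 failing hearts 2 ran best with their own number. The labels state no pairing, and such correlations cannot exclude one. With the replicate number as a block, Slc2a1 minus Slc2a4 kept its shift of 1.42 and lost its call (adjusted p = 0.1125, exact sign-flip test, smallest possible p 0.03125), Rpia lost its call (adjusted p = 0.0666), and 222 of the brighter probe sets were called higher and 59 lower.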
